A study of Caenorhabditis elegans with 2 samples.

Results

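Of 43 listed protein-coding genes of the germline and the piRNA pathway of *Caenorhabditis elegans*, 42 were found by name in the annotation of 19973 nuclear protein-coding genes. The gene tofu-3 was not matched by name and is not analysed here. The list was a given one, made up of 27 germline genes outside the piRNA pathway and 15 matched piRNA genes. A gene was called occupied when a peak summit, the point of highest signal of a peak, lay within 250 bp of its annotated 5' end. The peaks came from chromatin immunoprecipitation followed by sequencing (ChIP-seq) with an anti-GFP antibody, in 2 biological replicates of 1 group. The worms were of strain RW12251, allele st12251[snpc-1.2::TY1::EGFP::3xFLAG] on chromosome III, in which CRISPR placed the tag at the snpc-1.2 gene. They were whole L4 larvae of 48 hours that had been synchronised by starving hatched L1 larvae after bleaching, and their chromatin had been sonicated to between 200 and 800 bp. There was no group without the tag and no second stage, so the lists compare genes, not conditions, and the control library was not analysed here. Peak lists carry no expression, so the tissue could not be checked against markers. In whole larvae, binding in few cells and weak binding in many cells cannot be told apart.

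SNPC-1.2 is a worm relative of a subunit of SNAPc, the complex that recognises the promoters of small nuclear RNA genes and lets polymerase start there. In worms the SNAPc subunit SNPC-4 also works with PRDE-1, TOFU-4 and TOFU-5 at the genes for piRNAs, short RNAs of the germline. piRNA precursors are then trimmed at both ends and loaded on the Argonaute PRG-1, and silencing is passed on to other Argonautes such as HRDE-1. The remaining genes act in the same tissue: P granule proteins, RNA-binding proteins that hold back or free stored mRNAs, proteins of oocytes and early embryos, and proteins that pair chromosomes in meiosis.

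The whole-series list of peaks past the authors' threshold held 2829 peaks off the mitochondrial genome, the median one spanning 340 bp. The own lists of replicates 1 and 2 held 1411 and 1737. The ranked lists, which keep weak calls, held 83957 calls for the whole series, 62314 for replicate 1 and 68199 for replicate 2. Signal values, the peak caller's own with no scale stated, were compared within a list only. IDR, the irreproducible discovery rate, is low where 2 sets of calls rank a peak alike. Members lay on chromosomes I (12), II (9), III (7), IV (6) and V (8), with 0 on X. No member had fewer than 50% of its 50-base words unique in the genome at either end. Read depth is unknown, so all intervals cover the counting of genes only.

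SNPC-1.2 summits lay at the 5' ends of 3 germline genes: rme-2, which encodes the yolk receptor of oocytes, cgh-1, which encodes an RNA helicase of germline granules, and syp-2, which encodes a central protein of the synaptonemal complex. This was 3 of 42 members, or 7.14% (exact 95% interval, Clopper-Pearson, 1.5% to 19.5%). The background was 2.48%, the share of all nuclear protein-coding genes called by the same rule, and 2.76% of those on autosomes. The interval of the members' share includes both backgrounds. All 3 were germline genes outside the piRNA pathway, 3 of 27 or 11.1% (2.35% to 29.2%). Of the piRNA genes 0 of 15 were occupied, which allows a share of up to 20.0%, so a share like the background was not detectable as different. In the list of replicate 1 the occupied members were rme-2 and cgh-1 (4.76%, background 1.22%), and in that of replicate 2 rme-2 and oma-1 (4.76%, background 1.54%). With the summit required within 100 bp, rme-2 alone was left (background 0.861%). With it allowed within 500 bp the members came to 4 (9.52%, 2.66% to 22.6%, background 4.26%), mex-5 being the added gene.

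The sequences under these summits are shown because they are the places where the protein was called at a member's promoter. Each is written 5' to 3' on the gene's strand in assembly ce11, stops short of annotated UTR bases, and has the 21 bases centred on the whole-series summit in capitals. For syp-2 the summit lay inside the annotated gene, past its 5' end, so the bases just before the 5' end are given, with no capitals. The rme-2 window is chrIV:5469780-5470025 on the plus strand, that of cgh-1 chrIII:7497900-7498199 on the minus strand, that of syp-2 chrV:5536244-5536486 on the plus strand and that of mex-5 chrIV:13353279-13353578 on the plus strand.
rme-2: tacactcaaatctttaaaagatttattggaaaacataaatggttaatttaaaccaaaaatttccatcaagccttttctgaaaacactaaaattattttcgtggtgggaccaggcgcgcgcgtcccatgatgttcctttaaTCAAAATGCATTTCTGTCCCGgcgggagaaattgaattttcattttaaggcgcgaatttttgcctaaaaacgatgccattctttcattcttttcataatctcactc
cgh-1: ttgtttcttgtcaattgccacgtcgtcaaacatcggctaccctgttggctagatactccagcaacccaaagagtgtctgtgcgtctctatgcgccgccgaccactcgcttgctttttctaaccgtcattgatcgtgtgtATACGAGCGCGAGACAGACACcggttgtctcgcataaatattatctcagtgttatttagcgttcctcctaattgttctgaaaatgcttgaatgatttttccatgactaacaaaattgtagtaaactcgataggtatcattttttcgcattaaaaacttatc
syp-2: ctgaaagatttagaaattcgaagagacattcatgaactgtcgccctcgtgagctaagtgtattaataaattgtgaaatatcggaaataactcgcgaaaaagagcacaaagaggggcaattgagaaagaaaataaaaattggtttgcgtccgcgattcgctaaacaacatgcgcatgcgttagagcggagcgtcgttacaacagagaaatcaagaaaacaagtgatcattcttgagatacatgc
mex-5: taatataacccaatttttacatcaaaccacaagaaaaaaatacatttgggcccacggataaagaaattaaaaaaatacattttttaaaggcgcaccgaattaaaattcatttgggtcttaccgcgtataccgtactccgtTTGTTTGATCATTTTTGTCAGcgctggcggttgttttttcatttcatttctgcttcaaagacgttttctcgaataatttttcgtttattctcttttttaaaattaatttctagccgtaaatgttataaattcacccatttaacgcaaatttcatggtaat
Their GC contents were 35.4% for rme-2, 42% for cgh-1, 39.5% for syp-2 and 31.0% for mex-5.

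The gene rme-2 (chromosome IV, 5470026 to 5473174, plus strand) had the highest signal of the members. Its promoter summit lay 96 bp before the 5' end, at 5469930, with a whole-series signal of 486, rank 107 of 2829 peaks. Replicate 1 gave a signal of 203 at 112 bp before the 5' end, and replicate 2 gave 290 at 96 bp before it. Its IDR was 1e-05, the lowest value the lists can hold. It was the 1 member occupied in both replicates' own lists (background 0.846%), and the 1 member whose peak covered the annotated 5' end (background 1.48%).

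For cgh-1 (chromosome III, 7495320 to 7497832, minus strand) the summit lay 218 bp before the 5' end, with a whole-series signal of 118 and rank 1188. Replicate 1 called it above the threshold with a signal of 75 at 198 bp before the 5' end. Replicate 2 held it in the ranked list alone, with a signal of 48.0 and an IDR of 0.255. A second whole-series summit lay inside the gene, 332 bp before its 3' end, with a signal of 96.9. So the promoter call of cgh-1 passed the threshold in 1 of the 2 replicates, and the internal call in neither.

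The summit at syp-2 (chromosome V, 5536487 to 5537717, plus strand) was the only called one that lay past the 5' end, by 175 bp. Its whole-series signal was 95, rank 1811, below the median of 113.8 over the 496 occupied protein-coding genes. Neither replicate's own list held it: the ranked signals were 56.4 in replicate 1 (IDR 0.0133) and 37.8 in replicate 2 (IDR 0.106). The 5' end of cox-16, on the other strand, lay 419 bp from this summit. Across the 3 occupied members the median signal was 118, against 113.8 over all occupied protein-coding genes.

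Further genes of the germline had summits close to the 5' end without meeting the 250 bp rule in the whole-series list. The promoter summit of mex-5, which encodes a zinc-finger protein that sets the polarity of the embryo, lay 294 bp before its 5' end. Its signal was 143 in the whole series (rank 853), 64.6 in replicate 1 and 78.1 in replicate 2. All 3 lists placed it within 3 bp of the same point. The summit was nearer, at 236 bp, to the 5' end of the divergent gene rec-8, which encodes the meiotic cohesin subunit, so it cannot be given to mex-5 alone. A second summit inside mex-5, 1076 bp past the 5' end, had a signal of 102 in the whole series and 60.5 in replicate 2, and no threshold call in replicate 1.

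The gene oma-1, whose zinc-finger product is needed for oocyte maturation, was occupied in replicate 2 alone. Its signal there was 63.4, at 237 bp before the 5' end (IDR 0.00491). The ranked whole-series list held a call of 15.7 at 47 bp before the 5' end with an IDR of 0.62, and replicate 1 held no call. For htp-1, which encodes a protein of the meiotic chromosome axis, replicate 1 had a summit 341 bp past the 5' end with a signal of 38.9. The conservative list, a second whole-series list of 2753 peaks, gave the same 3 members at 250 bp (background 2.36%) and 6 at 500 bp (14.3%, background 4.18%). It added htp-1 and hrde-1, the latter with a signal of 77.8 at 254 bp before the 5' end and 27 bp from the 5' end of the divergent gene C16C10.13.

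**Figure D1:**
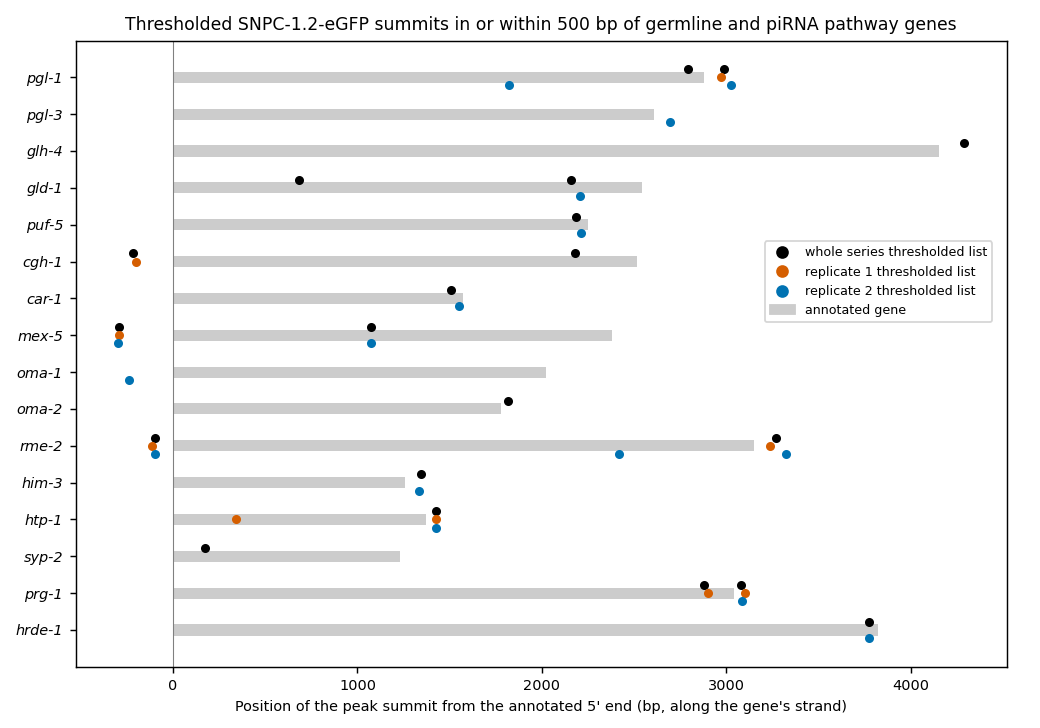
Thresholded summits along the 16 members with any in or within 500 bp of the gene, as bp from the annotated 5' end along the gene's strand (x axis), 1 gene a row. Grey bars are the annotated genes and dots are summits of the whole-series list (black), replicate 1 (orange) and replicate 2 (blue); at rme-2 all 3 lists have a dot on both sides of the gene, while most other dots sit at the right-hand ends.

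The map of summits along the genes also accounts for the rest: 26 members had no summit in or within 500 bp in the whole-series list or in either replicate's thresholded list. That count was not made over all protein-coding genes. In the whole-series list, 33.3% of members had a summit inside or within 250 bp, against 7.97% of all genes. The median distance from the 5' end to the nearest whole-series summit was 9689.5 bp for members and 22260 bp for all protein-coding genes. Another gene's 5' end lay within 500 bp of the 5' end in 13 members, and in 0 was it that of a piRNA or a short structured RNA such as a tRNA or snRNA. Among these were 2 neighbouring members, the divergent genes pgl-1 and him-3, whose 5' ends lay 190 bp apart. No thresholded summit lay between these 2 starts or within 250 bp of either.

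At the piRNA genes no call within 250 bp of a 5' end passed the threshold in any list. The summit of hrde-1 in the conservative list lay just outside, at 254 bp. The highest ranked call within 250 bp was at prde-1, whose product is needed to transcribe piRNA precursors. Its whole-series ranked signal was 78.6 at 98 bp before the 5' end, with an IDR of 0.019. Among protein-coding genes with a ranked call at the 5' end, this signal was at percentile 92.4. Replicate 1 gave 41.2 and replicate 2 gave 33.1. With ranked calls of an IDR of at most 0.05 counted, prde-1 joined the 3 occupied members (4 of 42, 9.52%, background 3.96%). The gene tofu-5, whose product acts with PRDE-1, had ranked signals of 54.1 in the whole series (IDR 0.54), 13.9 in replicate 1 and 34.2 in replicate 2. For henn-1, the methyltransferase of piRNA 3' ends, they were 46.8 in the whole series (IDR 0.509) and 13.3 in replicate 2, with no call in replicate 1. At prg-1, the Argonaute itself, the 5' end had ranked signals of 38.9 in the whole series, 16.4 in replicate 1 and 28.7 in replicate 2. None of these piRNA gene calls was in the whole-series thresholded list.

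Outside the piRNA pathway the highest ranked calls without a threshold peak were at glh-1, a P granule helicase, and nos-2, a Nanos protein of the primordial germ cells. At glh-1 the signals were 72.4 in the whole series (IDR 0.1), 23.8 in replicate 1 and 46.1 in replicate 2. At nos-2 they were 52.7 in the whole series (IDR 0.258) and 28.4 in replicate 2, with no call in replicate 1. A ranked whole-series call of any strength lay at the 5' ends of 18 of 42 members (42.9%, background 35.2%), among them 7 of the 15 piRNA genes and 11 of the 27 others. Calls in both replicates lay at 9 (21.4%, background 17.5%), and these shares are near the background. At 100 bp the count in both replicates was 0 of 42 (background 5.33%), which allows a share of up to 7.14%. The summits of rme-2, at 112 bp (replicate 1) and 96 bp (replicate 2) before the 5' end, fell on either side of that limit. The 9 within 250 bp were rme-2, cgh-1, syp-2, prde-1, glh-1, tofu-5, prg-1, gld-1 and puf-5.

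Set among all protein-coding genes that had a call at the 5' end, the members' whole-series signals had a median percentile of 66.8, with 13 of 18 above the median gene. The same values were 63.6 in replicate 1 (10 of 17) and 69.1 in replicate 2 (11 of 18). No ranked call in any of the 3 lists lay at the 5' ends of 16 members. These were the mRNA regulators gld-3, fbf-1, fbf-2, fog-3 and cpb-1, the embryonic RNA-binding proteins mex-3, mex-5 and mex-6, the meiotic genes him-3, htp-1 and syp-1, and the piRNA genes unc-130, pid-1, tost-1, parn-1 and tofu-7. At 7 of the 16 the 3' end had no call either: gld-3, fog-3, unc-130, pid-1, tost-1, parn-1 and tofu-7. Neither count was made over all protein-coding genes. Of those, the ranked lists called 35.2% at the 5' end in the whole series, 28.4% in replicate 1 and 30.5% in replicate 2. At the 3' end these shares were 36.0%, 28.0% and 32.6%. Most genes thus lacked a call in each list, so lacking one does not set a member apart.

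**Figure D2:**
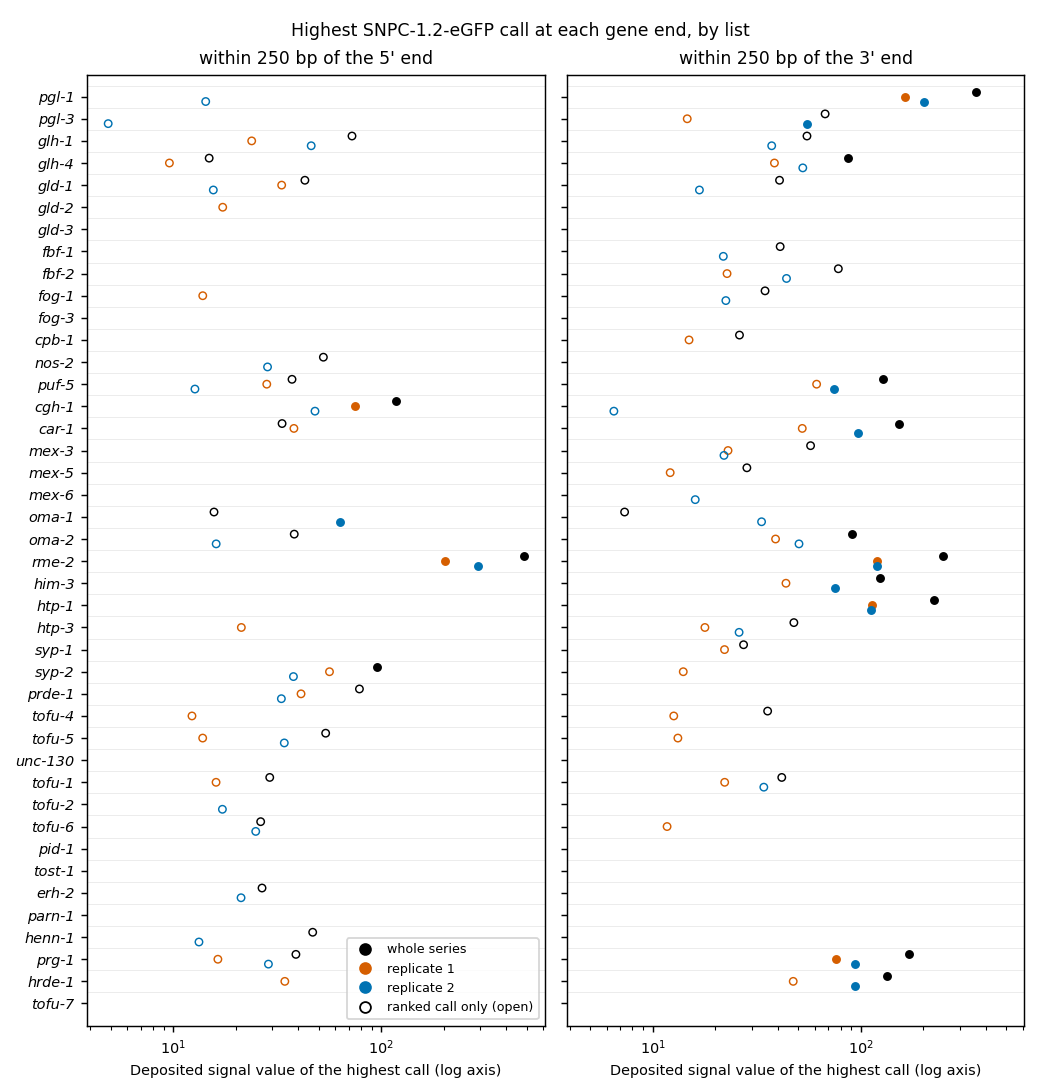
Signal of the highest ranked call within 250 bp of the 5' end (left) and the 3' end (right) of each of the 42 members, on a log axis, in the whole-series list (black), replicate 1 (orange) and replicate 2 (blue). Filled dots also passed the threshold and open dots did not; 3 genes have a filled black dot on the left and 10 on the right, and rows with no dot had no call.

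The plot of ranked calls shows more strong calls at 3' ends. SNPC-1.2 summits lay within 250 bp of the annotated 3' end of 10 of 42 members, 23.8% (exact 95% interval 12.1% to 39.5%), where the background was 2.78% of all protein-coding genes and 3.08% of autosomal ones. The 3' end rule was added after the summits of the members had been listed, so the count describes these genes and no test was run on it. The 10 genes were pgl-1, rme-2, htp-1, prg-1, car-1, hrde-1, puf-5, him-3, oma-2 and glh-4, named in the order of their signal. The 2 replicates differed: 4 members in the list of replicate 1 (9.52%, background 1.18%) and 9 in that of replicate 2 (21.4%, background 1.99%), a mean of 15.5% ± 8.42 (SD, n = 2). The 4 members in both lists were pgl-1, rme-2, htp-1 and prg-1 (background 0.881%). The conservative list held the same 10 genes (background 2.67%), and a window of 500 bp added gld-1 and cgh-1 (12 members, 28.6%, background 4.31%). The peak itself reached over the annotated 3' end in 8 members (background 1.83%), and 7 members had a summit with an IDR of at most 0.001 (background 1.25%).

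**Figure D3:**
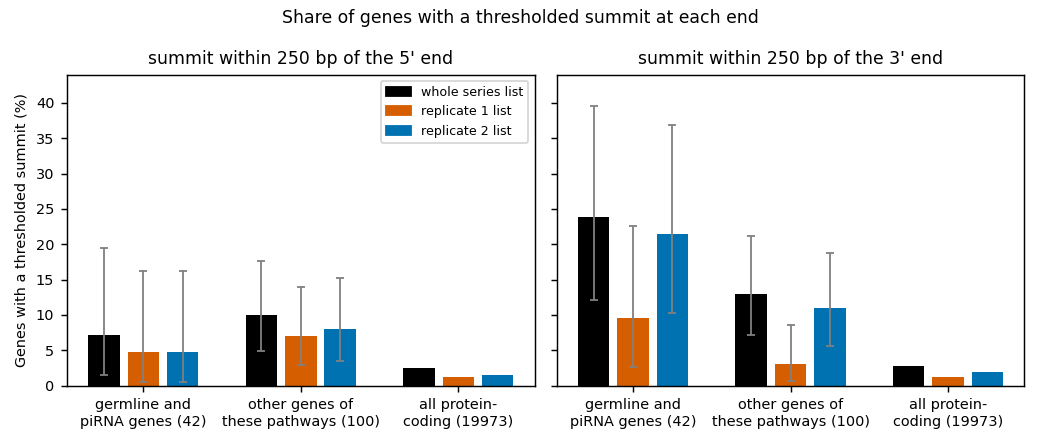
Share of genes (y axis, %) with a thresholded summit within 250 bp of the 5' end (left) and 3' end (right), for the 42 members, 100 other genes of these pathways and all 19973 protein-coding genes, in the whole-series list (black), replicate 1 (orange) and replicate 2 (blue). Bars are shares and the lines on the first 2 groups are exact 95% intervals; the members reach 23.8% at 3' ends in the whole-series list and 9.52% in replicate 1, against 2.78% and 1.18% of all genes.

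The sequences of the 3 highest member summits at 3' ends follow, since these sites carry the strongest signals. Both replicates called a summit within 250 bp of each of these 3' ends. At rme-2 the replicates' peaks did not overlap, and the whole-series summit lay in neither. The sequences are written on the gene's strand from after the annotated 3' end, with the 21 bases centred on the whole-series summit in capitals. The window of pgl-1 is chrIV:6974179-6974440 on the minus strand, that of htp-1 chrIV:5389984-5390188 on the minus strand and that of rme-2 chrIV:5473175-5473441 on the plus strand.
pgl-1: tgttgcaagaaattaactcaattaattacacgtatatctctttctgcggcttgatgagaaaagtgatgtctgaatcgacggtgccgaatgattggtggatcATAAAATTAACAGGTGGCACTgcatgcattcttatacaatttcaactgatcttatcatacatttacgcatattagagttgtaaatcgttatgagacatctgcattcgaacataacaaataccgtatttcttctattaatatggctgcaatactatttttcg
rme-2: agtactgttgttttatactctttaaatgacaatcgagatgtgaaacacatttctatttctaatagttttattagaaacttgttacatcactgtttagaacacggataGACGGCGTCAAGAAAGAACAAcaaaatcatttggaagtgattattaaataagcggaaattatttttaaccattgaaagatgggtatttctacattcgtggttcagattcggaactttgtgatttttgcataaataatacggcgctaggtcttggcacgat
htp-1: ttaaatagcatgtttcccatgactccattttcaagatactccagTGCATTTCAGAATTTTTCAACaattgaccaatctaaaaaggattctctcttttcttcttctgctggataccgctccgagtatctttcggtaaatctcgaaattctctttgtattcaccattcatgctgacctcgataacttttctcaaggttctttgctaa
Their GC contents were 34.4% for pgl-1, 32.6% for rme-2 and 36.6% for htp-1. No other annotated gene had its 5' end within 500 bp of any of these 3 summits.

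Among the 4 P granule genes, 2 had a summit at the 3' end. The gene pgl-1, which encodes a scaffold protein of P granules, had its main summit 112 bp past its 3' end with a whole-series signal of 358, rank 174. Replicate 1 gave 163 at 95 bp past the end and replicate 2 gave 202 at 150 bp past it. A second summit 88 bp inside the end had a signal of 2.09, the lowest rank of the list. The helicase gene glh-4 had a summit 137 bp past its 3' end with a signal of 86.7, which was 36 bp from the 5' end of the next gene, T12F5.2. Neither replicate's own list held it, with ranked signals of 38.5 and 52.7. The paralogue pgl-3 was called at its 3' end in replicate 2 alone, with a signal of 55.3 at 87 bp past the end.

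Of the 12 genes for mRNA control 2 were called at the 3' end. At car-1, whose product sits with CGH-1 in germline granules, the summit lay 65 bp inside the 3' end with a signal of 152 in the whole series and 96.5 in replicate 2. At puf-5, which encodes a PUF repressor of oocyte mRNAs, it lay 64 bp inside the end with 129 in the whole series and 74.6 in replicate 2. In replicate 1 both were ranked calls below the threshold, with signals of 52.4 and 61.4. The 5' end of F54C9.9 lay 326 bp from the puf-5 summit. The gene gld-1, which encodes a translational repressor needed for meiosis and oogenesis, had its summits inside the gene. They lay 685 bp past the 5' end (signal 81.9) and 386 bp before the 3' end (90.7), and the latter was called in replicate 2 with 60.1.

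Of the 6 genes for oocytes and early embryos 2 were called at the 3' end. At rme-2 the summit lay 118 bp past the 3' end with a signal of 248 in the whole series, 119 in replicate 1 and 120 in replicate 2. The replicate summits lay 86 bp and 176 bp past the end. The peaks of replicate 1 (5473179 to 5473262) and replicate 2 (5473346 to 5473438) did not overlap. The whole-series summit at the 3' end made rme-2 the 1 member with a summit at both ends (background 0.406%). At oma-2, the paralogue of oma-1, the summit lay 42 bp past the 3' end with a signal of 91.3 and was 155 bp from the 5' end of vars-1. Replicates 1 and 2 held it as ranked calls of 39.0 and 50.5.

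Of the 5 meiotic genes 2 were called at the 3' end, both axis proteins with a HORMA domain. At htp-1 the summit lay 55 bp past the 3' end with a signal of 226 in the whole series, 114 in replicate 1 and 112 in replicate 2, both at 59 bp past it. At him-3 it lay 89 bp past the end with 123 in the whole series and 75.2 in replicate 2. Replicate 1 held the him-3 call below the threshold, with a ranked signal of 43.7. The third axis gene, htp-3, had ranked calls only, the highest being 47.7 at -196 bp from the 3' end.

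Of the 15 piRNA genes 2 were called at the 3' end (13.3%, 1.66% to 40.5%, background 2.78%), and they were the 2 Argonautes. The interval includes the background. At prg-1 (chromosome I) the summit lay 42 bp past the 3' end with a signal of 171 in the whole series, 76.3 in replicate 1 and 94.3 in replicate 2. At hrde-1 (chromosome III) it lay 51 bp inside the end with 134 in the whole series and 93.5 in replicate 2, and replicate 1 held a ranked call of 47.4. None of the 4 piRNA transcription genes and none of the 8 precursor processing genes had a thresholded summit at either end. Among the genes outside the piRNA pathway the 3' share was 8 of 27 (29.6%, 13.8% to 50.2%, background 2.78%). The intervals of the 2 groups overlap.

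The 10 members called at the 3' end had a median signal of 143.2, against 109.3 over the 555 protein-coding genes called there. Their median summit position was 48.5 bp past the 3' end, against 101 bp. A ranked whole-series call lay at the 3' end of 24 members (57.1%, background 36.0%), and ranked calls in both replicates at 15 (35.7%, background 18.0%). The median percentile of the members' 3' signals among protein-coding genes with a call was 85.6 in the whole series (20 of 24 above the median gene), 62.2 in replicate 1 (14 of 22) and 90.7 in replicate 2 (19 of 22). The 22 members with a call were not the same ones in both replicates, so these 2 medians were not compared.

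**Figure D4:**
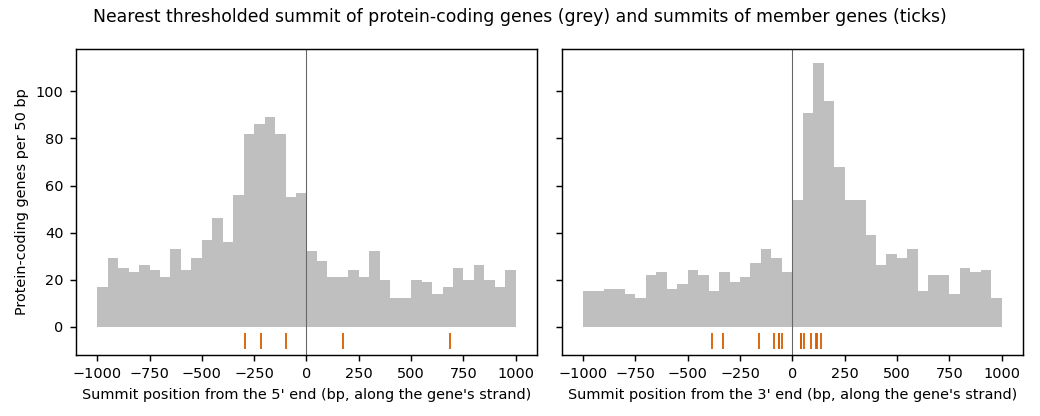
Number of protein-coding genes per 50 bp (y axis) by the position of their nearest thresholded whole-series summit from the 5' end (left) and the 3' end (right), in bp along the gene's strand, negative before that end (x axis). Orange ticks are the summits of members; the ticks at the 3' end lie on both sides of the end, with a median of 48.5 bp past it over the 10 called members against 101 bp over all called genes.

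The histogram of summit positions shows that protein-coding genes in general had summits before the 5' end, with a median of -114 bp over 496 occupied genes and 376 of them upstream. The promoter summits of rme-2 and cgh-1 lay on that side, and that of syp-2 did not. At 3' ends 422 of the 555 called protein-coding genes had the summit past the end, as did 7 of the 10 members. The signal of one end does not name the gene it belongs to where genes lie close together. With only genes counted that had no other gene's 5' end within 500 bp of their 3' end, 7 of 30 members were called at the 3' end (23.3%, background 1.92%). Those left out by this rule were oma-2, puf-5 and glh-4.

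Chromosome IV carries the 2 regions rich in piRNA genes, taken as 4.5 to 7.0 Mb and 13.5 to 17.2 Mb, and peaks are dense there. The members pgl-1, him-3, htp-1 and rme-2 lay in the regions, and all 4 had a summit at the 3' end (4 of 4, background 12.3% of protein-coding genes in the regions). At 5' ends it was 1 of 4 (background 10.8%). On the autosomes other than IV the 3' end count was 6 of 36 members (16.7%, 6.37% to 32.8%, background 2.32%), the genes being prg-1, car-1, hrde-1, puf-5, oma-2 and glh-4. At 5' ends it was 2 of 36 (5.56%, 0.68% to 18.7%, background 2.02%). The share of the 3' count that goes with the piRNA-rich regions was thus 4 of 10 genes.

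Over either end 12 of 42 members were called (28.6%, 15.7% to 44.6%, background 4.86%). With summits inside the gene added it was 14 (33.3%, 19.6% to 49.5%, background 7.97%), mex-5 and gld-1 being the added ones. By role, the counts at either end were 2 of 4 P granule genes, 3 of 12 mRNA control genes, 2 of 6 oocyte and embryo genes, 3 of 5 meiotic genes and 2 of 15 piRNA genes. With groups this small their intervals overlap.

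A list of 103 other genes of these pathways, of which 100 were matched, was counted by the same rules. At the 5' end 10 were occupied (10%, 4.9% to 17.6%, background 2.48%). The list of replicate 1 held 7 (background 1.22%) and that of replicate 2 held 8 (background 1.54%), a mean of 7.5% ± 0.707 (SD, n = 2). Of these, 4 of 13 were oocyte and embryo genes, 3 of 27 meiotic genes, 2 of 23 mRNA regulators, 1 of 26 small RNA genes and 0 of 11 granule genes, which allows a share of up to 27.3%. The highest were the PUF genes puf-3 with a signal of 415 (181 in replicate 1, 231 in replicate 2) and puf-11 with 318 (119 and 202). Both lay in the piRNA-rich regions of chromosome IV. There 2 of the 5 matched genes of this list were occupied (40.0%, 5.27% to 85.3%, background 10.8%). The cohesin genes followed with 167 at coh-3, 143 at rec-8 and 116 at coh-4, the last sharing its summit with pid-5. The rec-8 summit is the one given above for the member mex-5, so the counts of members and of these genes are not fully separate. The oocyte and embryo genes were perm-1 (122), mex-1 (121), egg-1 (101) and chs-1 (72.7), of the eggshell and the early embryo. The summits of all 10 genes lay before the 5' end, at a median over genes of -181 bp, and on the autosomes other than IV the count was 7 of 75 (9.33%, background 2.02%). The conservative list also held 10 (background 2.36%), with cey-2 and syp-5 in place of perm-1 and chs-1. Of the oocyte and embryo genes it thus held mex-1 and egg-1 only.

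At the 3' end 13 of the 100 other genes were called (13.0%, 7.11% to 21.2%, background 2.78%), 3 in the list of replicate 1 (background 1.18%) and 11 in that of replicate 2 (background 1.99%), a mean of 7.0% ± 5.66 (SD, n = 2). The 10 highest were puf-11 (341), csr-1 (166), him-5 (155), cbd-1 (148), ekl-1 (147), puf-3 (136), cey-2 (133), mut-16 (123), pos-1 (118) and dcap-2 (112). Of these csr-1 encodes an Argonaute that binds RNAs of germline genes, and pos-1 and cey-2 encode RNA-binding proteins of the germline and embryo. As with the members, fewer were called in replicate 1 than in replicate 2. The conservative list held 11 (background 2.67%), without puf-7 and without pos-1, whose ranked whole-series call had an IDR of 0.623. The genes puf-3 and puf-11 had a summit at both ends. In the piRNA-rich regions 4 of 5 genes were called at the 3' end (background 12.3%): dcap-2, puf-3, puf-7 and puf-11. On the autosomes other than IV it was 7 of 75 (9.33%, background 2.32%).

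The 300 bp around the 20 whole-series summits in or within 500 bp of a member were searched on both strands for CTGTTTCA, the core of the element found before piRNA genes. No other motif was searched, so none could overlap with it. It was in 0 of the 20 windows, which allows a share of up to 15% if each window is taken as separate. The windows of the pgl-1 summits overlap each other, as do those of the prg-1 summits. Over all 2829 peaks CTGTTTCA was in 10.9% of windows of the same length, and in the 300 bp before the 5' ends of the 19973 protein-coding genes it was in 2.47%. No match says only that these letters are not in the windows.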

How the data were processed

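Per the labels and notes, the authors deposited 8 peak lists on assembly ce11: a ranked and a thresholded list of each of the 2 biological replicates, and 4 lists over both. Signal is the value the authors' peak caller gave each peak, on an unstated scale. The ranked lists as deposited also give −log10 of the global IDR, capped at 5. Neither labels nor headers name the caller or the aligner; per the notes, filtered alignments and a control went in. From the values, the whole-series thresholded list matches the ranking that does not compare the true replicates (highest IDR 0.00999), and the conservative list the ranking that does (0.01). Of the thresholded peaks, at least 530 were above 0.01 in the latter or had no match there, and 20 had no match. The IDR limit of 0.001 was applied to the ranking that does not compare the true replicates. The limit of 0.05 and the IDRs printed with whole-series signals are of the ranking that does.

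Annotated ends are those of Ensembl 115 (WBcel235), and bases were read from the RefSeq genome of that build. A summit within 250 bp of an end counted, with 500 bp beside it. Mitochondrial peaks were left out. Shares carry exact 95% Clopper-Pearson intervals, and a count of 0 the limit of 3 counts. No test was run. The members and lists were chosen with earlier results of these data known. Named are members occupied in any thresholded list, then those within 500 bp, then the 5 others with the highest ranked signal, those with no ranked call, and the 10 highest other pathway genes. Genes called at the 3' end and prg-1 at its 5' end were added after their values were seen. The distance rule was checked on simulated peaks. Python 3.11.15, pandas 2.3.3, numpy 2.4.6, scipy 1.17.1 and matplotlib 3.10.9 were used. Alternatives were the conservative list, each replicate alone, other windows, other IDR limits, any transcript's 5' end and, added after the data were seen, the 3' end rule and leaving out chromosome IV.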

Additional observations from a re-analysis of the deposited data

How the results depend on the processing

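The count of occupied members was 3. It was 1 with the summit within 100 bp and 1 with the peak over the 5' end, 2 in each replicate alone, and between 2 and 4 under the other settings. Within 500 bp it was 4, with 3 to 4 in the replicates' own lists and 6 in the conservative list. The median signal of occupied members, 118, was 139 to 177 in the replicates' lists, which have scales of their own. Ranked calls in both replicates, 9 at 250 bp, were 0 at 100 bp and 21 at 500 bp. The other pathway genes, 10 occupied, were 2 at 100 bp, 16 at 500 bp and 7 to 8 in the replicates' lists. The settings for 3' ends and the leaving out of chromosome IV were chosen after seeing the data. The members' count of 10 was 4 to 9 with each replicate left out, the lower value being that of replicate 1 alone, and 6 with chromosome IV left out. For the other pathway genes the 13 were 3 to 11 with each replicate left out, 8 with an IDR of at most 0.001 and 7 with chromosome IV left out. A smaller window, a stricter IDR and fewer chromosomes can only lower a count by construction; beyond that the cause was not tested. No paired analysis was possible because there is 1 group. Read depth is unknown, the 2 replicates are from 1 group, and small counts leave wide intervals.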
